A study of Mus musculus with 4 samples.

Results

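The cyclin-dependent kinase (CDK) inhibitor genes of the mouse, Cdkn1a, Cdkn1b, Cdkn1c, Cdkn2a, Cdkn2b, Cdkn2c and Cdkn2d, were followed in stem cells of skin squamous cell carcinoma. The 7 genes were chosen by name, and all 7 were among the 11835 genes tested, out of 19370 named genes with a value above 0. A gene entered the test with at least 1 FPKM (fragments scaled to transcript length and to the library's total) in at least 2 of the 4 libraries, and Cdkn1c did so in 3 libraries.

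The reporter positive group held mCherry positive cells, labelled as having TGF-β signalling, and the reporter negative group mCherry negative cells, labelled as lacking it. Each group had 1 library from experiment 1 and 1 from experiment 2 (n = 2). Both groups came from primary skin epidermis-derived SCCs of strain C57BL/6 X FBV and carried TetO-Hras together with LV-rtTA3-TGF-beta reporter, so every library came from Hras tumours and no normal skin served as control. TetO-Hras is an Hras transgene under a tetracycline-responsive element, and rtTA3 is the transactivator that binds that element in the presence of doxycycline. Lineage-negative cells were sorted by integrin α6 and CD44 and then split by the reporter. The age of the mice, the promoter that drives rtTA3 and the number of tumours or mice per library are not given in the labels. Whether the experiments came from different mice is not stated, so a p-value here speaks only of the variation among these 4 libraries, which may be technical.

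The proteins encoded by these genes brake the cell cycle. The CIP/KIP proteins p21 (Cdkn1a), p27 (Cdkn1b) and p57 (Cdkn1c) bind cyclin-CDK complexes and can block CDK2, whereas the INK4 proteins p16Ink4a (Cdkn2a), p15 (Cdkn2b), p18 (Cdkn2c) and p19Ink4d (Cdkn2d) bind CDK4 and CDK6 and keep D-type cyclins from activating them. In epithelial cells, G1 arrest by TGF-β is known to involve induction of p15 and p21 and repression of Myc, and p16Ink4a and p19Arf, both made from Cdkn2a, are known barriers to Ras-driven tumours.

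The genes start from different promoters, and for Cdkn1a and Cdkn2a the transcript records separate the starts. The RefSeq windows of 250 bases before each start are shown for these genes because the results below differ between their starts. Capitals mark GGGCGG, the GC box bound by Sp1-type factors, and CAGAC, a Smad binding element, each on either strand, and the sequences run 5′ to 3′ on the gene's strand. The first window ends at the Cdkn1a start that carried the gene's signal (GRCm38.p6, chr17:29093519-29093768, plus strand, start of ENSMUST00000023829). The second ends at an upstream Cdkn1a start (chr17:29090729-29090978, plus strand, start of ENSMUST00000119901). The third ends at the start of Cdkn2a exon 1α (chr4:89282193-89282442, minus strand) and the fourth near the start of Cdkn2a exon 1β (chr4:89294620-89294869, minus strand).
Cdkn1a, start used: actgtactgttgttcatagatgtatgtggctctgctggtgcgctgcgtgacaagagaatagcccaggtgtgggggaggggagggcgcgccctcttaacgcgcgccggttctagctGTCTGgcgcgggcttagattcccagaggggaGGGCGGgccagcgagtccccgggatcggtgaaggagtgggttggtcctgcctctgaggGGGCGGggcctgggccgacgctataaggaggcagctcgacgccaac
Cdkn1a, upstream start: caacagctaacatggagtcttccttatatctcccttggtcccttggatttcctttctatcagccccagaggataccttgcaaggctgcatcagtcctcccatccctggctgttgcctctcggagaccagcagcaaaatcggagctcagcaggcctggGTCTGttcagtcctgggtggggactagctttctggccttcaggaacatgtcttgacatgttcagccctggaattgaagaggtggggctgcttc
Cdkn2a, exon 1α start: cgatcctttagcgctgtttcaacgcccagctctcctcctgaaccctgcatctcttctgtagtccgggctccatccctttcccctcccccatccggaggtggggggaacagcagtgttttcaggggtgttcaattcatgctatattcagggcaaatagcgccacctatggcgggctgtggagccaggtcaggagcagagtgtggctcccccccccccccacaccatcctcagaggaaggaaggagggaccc
Cdkn2a, exon 1β start: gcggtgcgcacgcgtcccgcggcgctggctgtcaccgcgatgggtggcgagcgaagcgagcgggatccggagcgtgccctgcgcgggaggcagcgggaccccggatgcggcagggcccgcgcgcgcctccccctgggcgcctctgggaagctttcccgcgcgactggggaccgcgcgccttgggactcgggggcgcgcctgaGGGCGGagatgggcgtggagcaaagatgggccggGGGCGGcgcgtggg
The used Cdkn1a window held GGGCGG 2 times and CAGAC 1 time, and the upstream one held CAGAC 1 time and no GGGCGG. The exon 1β window held GGGCGG 2 times and no CAGAC, and the exon 1α window held neither. The exon 1β window reaches 34 bases into the exon 1β transcript ENSMUST00000107131, so the GGGCGG nearer its end lies within that transcript. Of 32851 RefSeq mouse promoter windows, 32.7% held GGGCGG and 42.2% held CAGAC. A match is a description of the letters and not a binding site. RefSeq windows were matched for 6 of the 7 genes, with 9 starts in all.

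Aligned sequence recovered from the files was 3.55 and 3.29 gigabases in the reporter positive libraries and 3.13 and 3.75 gigabases in the reporter negative libraries. Across the 11835 genes, limma with Benjamini-Hochberg adjustment gave an adjusted p under 0.05 for 331 genes higher and 347 lower in reporter positive cells. The keratinocyte markers were Cdh1, Epcam, Itga6, Itgb4, Trp63 and Krt10. Krt5, Krt14 and Krt1 were also listed, had no value among the named genes and were not analysed here. The analysed markers summed to 919 to 1294 FPKM in reporter positive cells and 1257 to 1637 FPKM in reporter negative cells. Krt10 was the largest part, with 504 and 838 FPKM in reporter positive and 629 and 848 FPKM in reporter negative cells. Epcam, Itga6, Itgb4 and Trp63 each lay lower in both reporter positive libraries, as did 43% of all genes tested. Cdh1 and Krt10 overlapped between the groups. Summed markers of fibroblasts were 12.9 to 27.7 FPKM in reporter positive and 27.4 to 41.7 FPKM in reporter negative cells, and those of endothelium were 3.01 to 3.38 FPKM in reporter positive and 5.51 to 12.8 FPKM in reporter negative cells. Those of leukocytes were 9.95 to 17.1 FPKM in reporter positive and 6.92 to 8.15 FPKM in reporter negative cells, mostly from Cd14 and Lyz2. Those of melanocytes were 0.494 to 1.03 FPKM in reporter positive and 1.07 to 1.56 FPKM in reporter negative cells. Pmel was listed at 0 in all 4 libraries. None of the 15 markers tested passed with limma without the experiment as a block. With the block 4 keratinocyte markers and 1 fibroblast marker were lower, against 7.99% of all genes tested. The part of other cell types in the results below was not tested.

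In reporter positive cells Cdkn1a was higher and Cdkn1b lower than in reporter negative cells, and the other 5 inhibitor genes did not pass the test. Of all genes tested, 5.73% passed (2.8% higher and 2.93% lower), against these 2 of 7. Differences are given as reporter positive minus reporter negative log2(FPKM + 1), ± SE, a scale that understates the difference of genes of low level. In bulk samples fewer cells that express a gene and less RNA per cell cannot be told apart. With the experiment as a block 12.8% of all genes passed (4.76% higher and 7.99% lower), and of the 7 genes Cdkn1a was higher and both Cdkn1b and Cdkn2c were lower. Values of each gene did not overlap between the groups, with 4 genes above and 3 below in both reporter positive libraries. That was the case for 58.2% of all genes tested, 15.3% above and 43% below. The median difference of the 7 genes was 0.40, which is the value of Cdkn1c, against -0.18 over all genes tested. The 7 differences ran from -0.93 to 1.23, so this median does not show a shared shift. With median-of-ratios scaling the medians of the 7 genes and of all genes tested were 0.52 and 0.01. Each of the 7 genes kept its sign under both scalings tried.

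**Figure D1:**
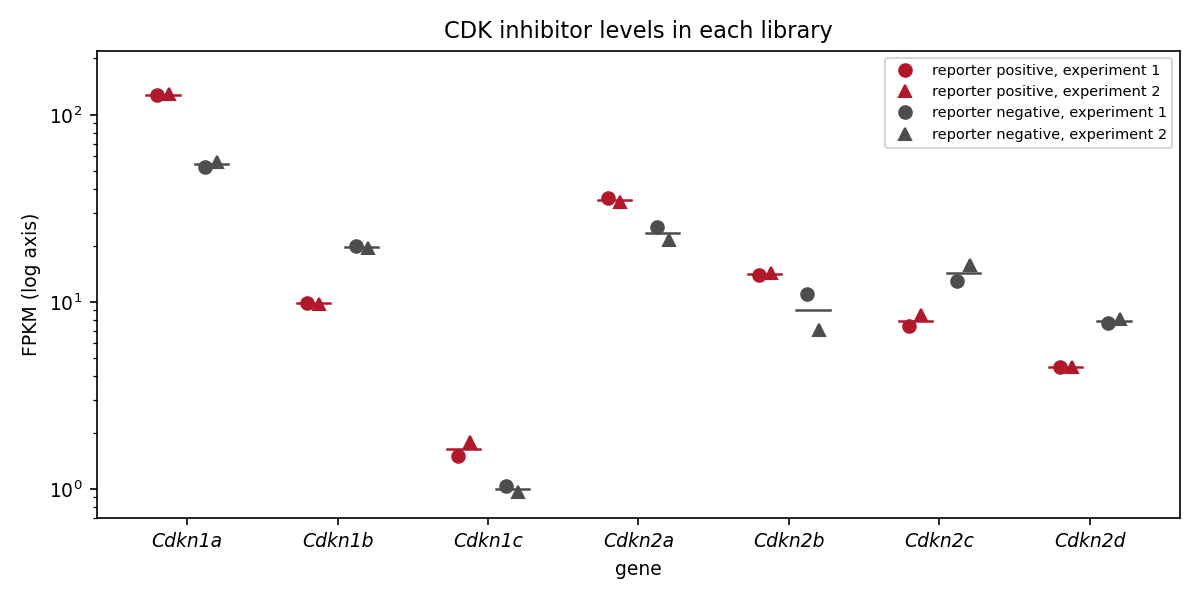
FPKM of the 7 CDK inhibitor genes in each of the 4 libraries, on a log axis, with 1 point per library and a bar at each group's mean. Cdkn1a lies highest in both groups, and Cdkn1b lies at 9.91 and 9.75 FPKM in reporter positive and at 19.9 and 19.3 FPKM in reporter negative libraries.

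Cdkn1a encodes p21, an inhibitor of cyclin-CDK2 that p53 and Smad proteins are known to induce. The gene (ENSMUSG00000023067, mm9 chr17:29227924-29237667, plus strand) had 127 and 129 FPKM in the reporter positive libraries of experiments 1 and 2, against 52.6 and 56.0 FPKM in the reporter negative libraries. Both positive libraries lay well above both negative ones, and the libraries of a fraction were close to each other. The means were 128 ± 1.52 FPKM in reporter positive and 54.3 ± 2.42 FPKM in reporter negative cells (SD, n = 2 each), a ratio of 2.36. The ratio was 2.42 in experiment 1 and 2.31 in experiment 2. The log2 difference was 1.23 ± 0.13 (limma, Benjamini-Hochberg adjusted p = 0.0167). Cdkn1a did not pass in any of the 4 fits that left out 1 library, with differences of 1.18 to 1.27 and adjusted p of 0.0654 to 0.132. The mean level of the gene over the 4 libraries was above that of 90.2% of genes tested.

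All of the Cdkn1a FPKM lay on ENSMUST00000023829, which begins at the end of the first window printed above. The Cufflinks intervals of this transcript were 125 to 132 and 126 to 135 FPKM in the reporter positive libraries and 50.5 to 55.3 and 54.1 to 58.7 FPKM in the reporter negative ones. ENSMUST00000119901, which begins at the end of the second window, and ENSMUST00000122348 were listed at 0 in all 4 libraries, with upper bounds of at most 0.110 FPKM. The difference of Cdkn1a was therefore measured on 1 transcript form in both groups.

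Cdkn1b encodes p27, the inhibitor of cyclin E-CDK2 and cyclin A-CDK2 that is known to hold cells in quiescence. The gene (ENSMUSG00000003031, mm9 chr6:134870419-134875531, plus strand) had 9.91 and 9.75 FPKM in reporter positive cells, against 19.9 and 19.3 FPKM in reporter negative cells. Levels in both experiments fell to nearly the same fraction, with ratios of 0.499 and 0.505. Means were 9.83 ± 0.111 and 19.6 ± 0.394 FPKM in reporter positive and reporter negative cells (SD, n = 2 each). The log2 difference was -0.93 ± 0.15 (limma, Benjamini-Hochberg adjusted p = 0.0406). The call was lost with median-of-ratios scaling (-0.72, adjusted p = 0.0620) and with quantile normalization (-0.76, adjusted p = 0.0571). It was also lost without each library in turn, with differences of -0.95 to -0.91 and adjusted p of 0.0829 to 0.273.

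The spliced Cdkn1b transcript ENSMUST00000003115 had 8.46 and 7.34 FPKM in reporter positive and 16.6 and 15.1 FPKM in reporter negative cells. Transcripts that keep the last intron made up 14.6% and 24.8% of the gene's FPKM in reporter positive and 16.5% and 22.1% in reporter negative cells. In the reporter negative library of experiment 1 this was an assembled transcript with a further splice in the first exon, and in the other libraries it was the annotated ENSMUST00000067327. Those shares overlapped between the groups, and the spliced form lay lower in both reporter positive libraries, as the gene sum did.

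Cdkn1c encodes p57, the CIP/KIP protein from an imprinted gene. The gene (ENSMUSG00000037664, mm9 chr7:150644255-150646955, minus strand) was the lowest of the 7, with 1.50 and 1.79 FPKM in reporter positive and 1.03 and 0.960 FPKM in reporter negative cells. Both positive libraries were above both negative ones. The log2 difference was 0.40 ± 0.20 and did not pass (limma, adjusted p = 0.271). It was 0.66 with a pseudocount of 0.1, 0.25 without assembled transcripts and 0.19 from the most abundant transcript alone, and passed in none of these. In the reporter positive library of experiment 2, 0.520 FPKM of the value came from a transcript assembled from the reads. Its mean level was above that of 4.53% of genes tested.

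**Figure D2:**
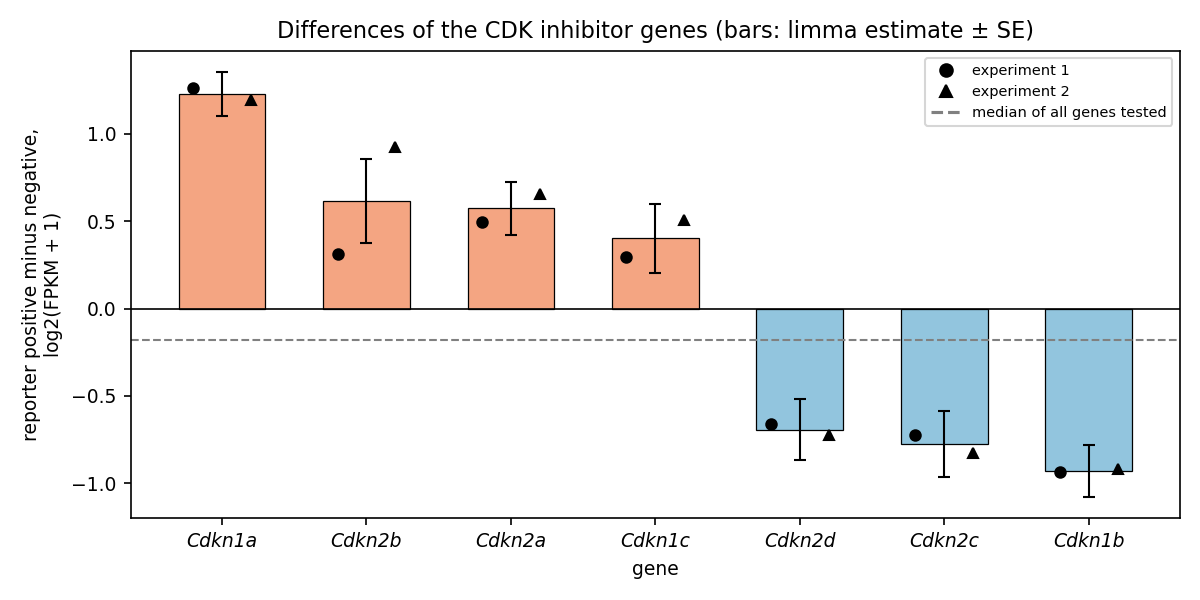
Reporter positive minus reporter negative difference of each gene on the log2(FPKM + 1) scale (bar: limma estimate, whisker: SE), with the differences of the 2 experiments as points and the median of all genes tested as a line at -0.18. Cdkn1a lies at 1.23 and Cdkn1b at -0.93, and the points of Cdkn2b lie farthest apart, at 0.31 and 0.92.

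Of the INK4 genes, Cdkn2a and Cdkn2b stood higher and Cdkn2c and Cdkn2d lower in both reporter positive libraries, and none passed without blocks. Cdkn2a (ENSMUSG00000044303, mm9 chr4:88920377-88940557, minus strand) had 35.7 and 34.2 FPKM in reporter positive and 25.1 and 21.4 FPKM in reporter negative cells. The ratio of the means was 1.51, and the log2 difference was 0.57 ± 0.15 (limma, adjusted p = 0.0976), or 0.26 with the most abundant transcript alone. Cdkn2a was the second most abundant of the 7 genes in both groups. That level sums the exon 1α form (p16Ink4a) and the exon 1β form (p19Arf, which is not an INK4 protein). The exon 1β form held 53.5% and 60.0% of it in reporter positive and 67.5% and 74.0% in reporter negative cells.

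Cdkn2a makes different proteins from exon 1α and exon 1β, which are spliced to the same exon 2 and read it in different frames. The junctions are shown from GENCODE M21 (GRCm38, minus strand of chromosome 4) because the value of each form rests on the reads that tell these first exons apart. The last 30 bases of exon 1 are in lower case and the first 30 bases of the shared exon 2 in capitals.
Exon 1α to exon 2, p16Ink4a: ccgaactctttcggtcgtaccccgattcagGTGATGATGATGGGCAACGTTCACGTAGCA
Exon 1β to exon 2, p19Arf: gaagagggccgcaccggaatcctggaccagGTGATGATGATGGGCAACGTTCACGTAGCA
Exon 1α lies at chr4:89281986-89282192, exon 1β at chr4:89294334-89294653 and exon 2 at chr4:89276645-89276985. The coding part of exon 1α is 126 bases and that of exon 1β 190 bases, so the first base of exon 2 takes codon position 1 in p16Ink4a and position 2 in p19Arf. The reading frame of p16Ink4a holds 168 codons and that of p19Arf 169 codons.

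The exon 1α form (ENSMUST00000060501) had 16.6 and 13.7 FPKM in reporter positive cells, against 8.16 and 5.56 FPKM in reporter negative cells. The Cufflinks intervals were 14.6 to 18.6 and 11.8 to 15.6 FPKM in reporter positive and 6.64 to 9.68 and 4.44 to 6.68 FPKM in reporter negative libraries, so none of the positive intervals met a negative one. The exon 1β form (ENSMUST00000107131) had 19.1 and 20.5 FPKM in reporter positive and 16.9 and 15.8 FPKM in reporter negative cells. The ratio of means was 2.21 for the exon 1α form and 1.21 for the exon 1β form.

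The exon 1α form held 46.5% and 40.0% of the Cdkn2a FPKM in reporter positive and 32.5% and 26.0% in reporter negative cells, and these shares did not overlap. In a fit with 14106 reference transcripts as features, added after seeing the data, 0.574% of transcripts passed. The difference was 1.05 ± 0.26 for the exon 1α form (limma, adjusted p = 0.211) and 0.26 ± 0.15 for the exon 1β form (adjusted p = 0.491), and neither passed. No transcript of the 7 genes passed in that fit, Cdkn1a included (adjusted p = 0.0663). The intervals of the exon 1β form were 17.0 to 21.2 and 18.4 to 22.7 FPKM in reporter positive and 12.7 to 16.4 and 14.1 to 17.6 FPKM in reporter negative libraries. The value of 16.9 FPKM in the reporter negative library of experiment 1 lies outside its own interval. Both forms share exon 2 and their reads were divided by Cufflinks, so a value of one form depends on the other. A further exon 1β form, ENSMUST00000030237, was listed at 0 in all 4 libraries.

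**Figure D3:**
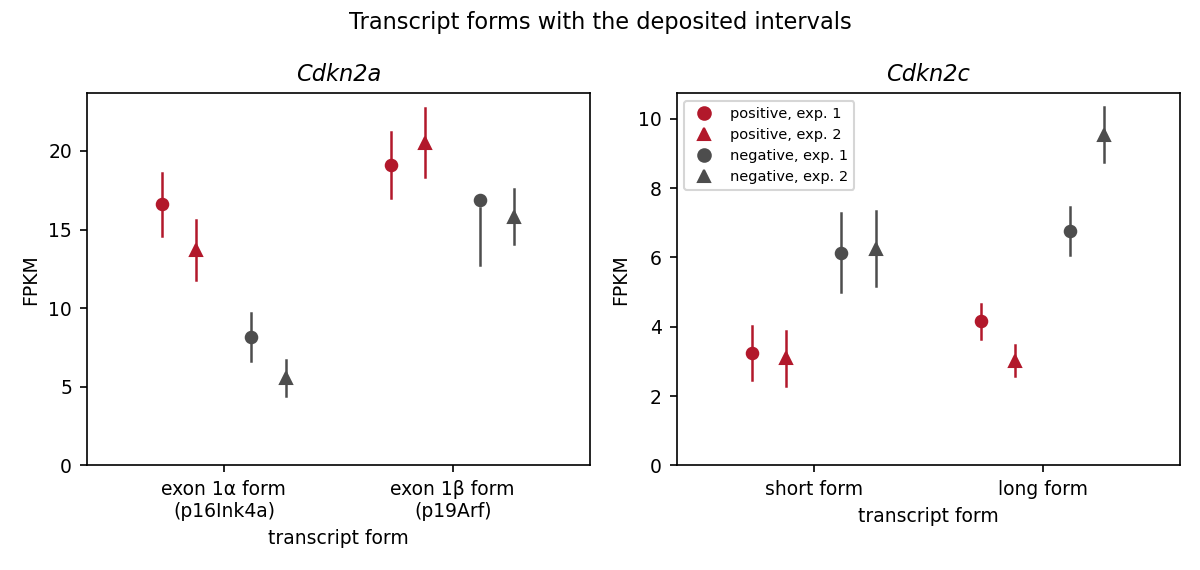
FPKM of transcript forms in each library (points) with the Cufflinks intervals deposited for them (whiskers), for the first exons of Cdkn2a and for the short and long forms of Cdkn2c. The exon 1α points lie at 16.6 and 13.7 FPKM in reporter positive and at 8.16 and 5.56 FPKM in reporter negative libraries, and the exon 1β points lie closer together.

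Cdkn2b encodes p15, the INK4 protein best known as a TGF-β target, and lies next to Cdkn2a. The gene (ENSMUSG00000073802, mm9 chr4:88952198-88956941, minus strand) had 13.9 and 14.3 FPKM in reporter positive and 11.0 and 7.05 FPKM in reporter negative cells. The positive libraries were alike and the negative ones differed, so the ratio was 1.26 in experiment 1 and 2.02 in experiment 2. The log2 difference was 0.62 ± 0.24 (limma, adjusted p = 0.196). It was 0.38 with reference transcripts only or the most abundant transcript, and 0.33 without the reporter negative library of experiment 2. In the reporter positive library of experiment 2, 10.1 FPKM lay on the annotated transcript ENSMUST00000097981 and 4.20 FPKM on an assembled form. In the reporter negative library of experiment 2 an assembled record of 0.93 FPKM overlapped the gene by less than 50% of its length and was left out. With it the library has 7.99 FPKM and the log2 difference is 0.54. The noncoding gene Gm12606, 1010 bases from Cdkn2a on the same strand, had 9.52 and 12.7 FPKM in reporter positive and 13.0 and 12.7 FPKM in reporter negative cells (limma, log2 difference -0.21, adjusted p = 0.548).

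Cdkn2c encodes p18. The gene (ENSMUSG00000028551, mm9 chr4:109333481-109339794, minus strand) had 7.40 and 8.46 FPKM in reporter positive and 12.9 and 15.8 FPKM in reporter negative cells. The lower reporter negative value was above the higher reporter positive one, and the ratio of the means was 0.553. The log2 difference was -0.78 ± 0.19, with a limma adjusted p of 0.0844 without blocks and 0.0442 with the experiment as a block. With the block and median-of-ratios scaling together, added after seeing the data, it was -0.58 and did not pass (adjusted p = 0.0827). Its short form (ENSMUST00000063531) had 3.24 and 3.09 FPKM in reporter positive and 6.12 and 6.24 FPKM in reporter negative cells. The long form (ENSMUST00000097921) had 4.16 and 3.02 FPKM in reporter positive and 6.76 and 9.53 FPKM in reporter negative cells, so both forms lay lower in both positive libraries. An assembled form held a further 2.35 FPKM in the reporter positive library of experiment 2.

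Cdkn2d encodes p19Ink4d. The gene (ENSMUSG00000096472, mm9 chr9:21092907-21095653, minus strand) had 4.50 FPKM in both reporter positive libraries, against 7.70 and 8.10 FPKM in the reporter negative ones. Replicates of each group lay close together and the groups were apart, with a ratio of the means of 0.570. The log2 difference was -0.69 ± 0.17 (limma, adjusted p = 0.0902). With the experiment as a block and genes listed at 0 in any library left out, a combination added after seeing the data, 29.4% of 11378 genes passed (8.45% higher and 20.9% lower) and so did 6 of the 7 genes, all but Cdkn1c. The adjusted p values were then 0.00935 for Cdkn2a, 0.0261 for Cdkn2b, 0.00438 for Cdkn2c and 0.0143 for Cdkn2d.

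By mean FPKM, a per-length level, the order in reporter positive cells was Cdkn1a, Cdkn2a, Cdkn2b, Cdkn1b, Cdkn2c, Cdkn2d and Cdkn1c, and libraries of neighbours in that order did not overlap. In reporter negative cells it was Cdkn1a, Cdkn2a, Cdkn1b, Cdkn2c, Cdkn2b, Cdkn2d and Cdkn1c. Of the neighbours there, Cdkn2b and Cdkn2d could not be ordered, since the 7.70 and 8.10 FPKM of Cdkn2d lay between the 11.0 and 7.05 FPKM of Cdkn2b. Cdkn2b thus stood above Cdkn1b and Cdkn2c in both reporter positive libraries and below them in both reporter negative libraries.

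Shares within a library do not depend on the scaling between libraries. Cdkn1a held 63.6% and 63.9% of the summed FPKM of the 7 genes in reporter positive cells, against 40.4% and 43.6% in reporter negative cells. Cdkn1b held 4.95% and 4.82% in reporter positive and 15.3% and 15.0% in reporter negative cells. Both shares were apart between the groups, in opposite directions. These directions are not independent, since a larger Cdkn1a share leaves less for each of the other genes. The share of Cdkn2c was 3.69% and 4.18% in reporter positive and 9.90% and 12.3% in reporter negative cells. That of Cdkn2d was 2.25% and 2.22% in reporter positive and 5.91% and 6.30% in reporter negative cells. The shares of Cdkn1c, Cdkn2a and Cdkn2b overlapped between the groups. Cdkn2a held 17.8% and 16.9% in reporter positive and 19.3% and 16.6% in reporter negative cells, although its FPKM did not overlap.

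The summed FPKM of the 7 genes was 200.3 and 202 in reporter positive and 130.2 and 129 in reporter negative cells. Without Cdkn1a the sums were 73.0 and 73.0 FPKM in reporter positive and 77.6 and 72.6 FPKM in reporter negative cells, so the groups overlapped. The ratio of Cdkn1a to Cdkn1b FPKM was 12.8 and 13.3 in reporter positive and 2.64 and 2.90 in reporter negative cells. The ratio of Cdkn2a to Cdkn2c FPKM was 4.83 and 4.04 in reporter positive and 1.95 and 1.36 in reporter negative cells. The INK4 genes together held 30.7% and 30.3% of the sum in reporter positive and 43.6% and 40.7% in reporter negative cells. That sum includes Cdkn1a, so the smaller share does not show a lower INK4 level. Cdkn2a is counted with its p19Arf form in all these shares, sums and ratios. By FPKM, Cdkn2a and Cdkn2b were higher and Cdkn2c and Cdkn2d lower in both reporter positive libraries. With 2 libraries against 2, an exact permutation test of such a value cannot go below p = 0.333, so these are given without a test.

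**Figure D4:**
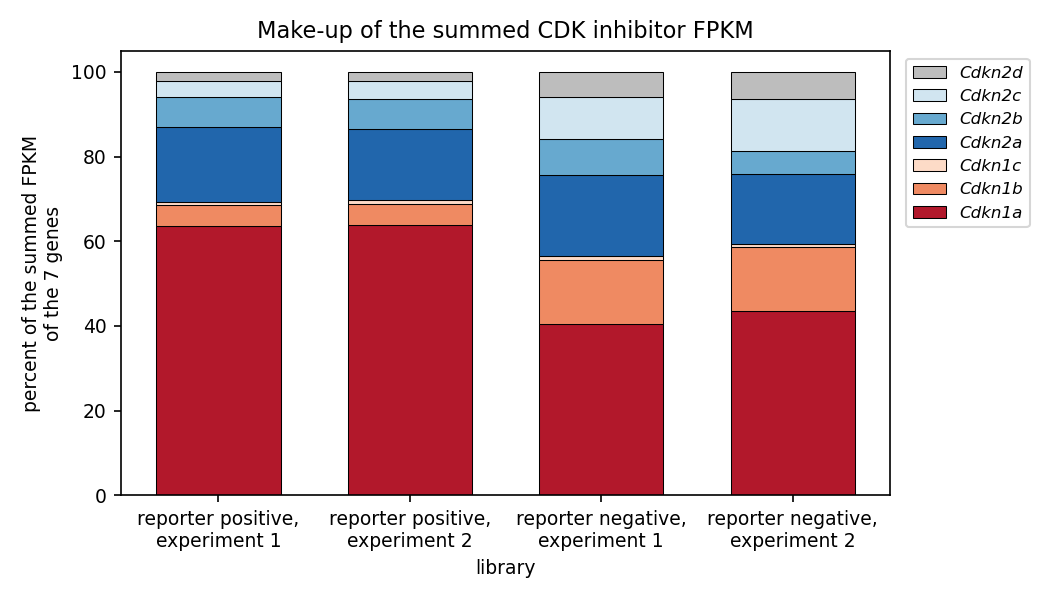
Percent of the summed FPKM of the 7 CDK inhibitor genes held by each gene, stacked for each library. The Cdkn1a segment takes 63.6% and 63.9% in the reporter positive libraries and 40.4% and 43.6% in the reporter negative ones, and the Cdkn1b, Cdkn2c and Cdkn2d segments are narrower in the reporter positive libraries.

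Of 12 genes for the CDKs and cyclins that the inhibitors bind, 11 were tested, with a median log2 difference of -0.68. In reporter positive cells 1 was lower, against 2.93% of all genes tested, and 10 did not pass. Ccnb2, a mitotic cyclin, had 24.7 ± 0.421 FPKM in reporter positive and 47.0 ± 1.78 FPKM in reporter negative cells (limma, adjusted p = 0.0337), and did not pass with median-of-ratios scaling (adjusted p = 0.0681). Cdk2, the main target of p21 and p27, had 9.40 ± 1.03 FPKM in reporter positive and 16.9 ± 4.64 FPKM in reporter negative cells (adjusted p = 0.130). Ccna2, the S-phase cyclin, had 21.7 ± 1.90 FPKM in reporter positive and 38.2 ± 5.09 FPKM in reporter negative cells, with an adjusted p of 0.0662 without and 0.0448 with the block. Ccne2, an E-type cyclin, had an adjusted p of 0.115. Cdk6, a target of the INK4 proteins, was listed at 0 in all 4 libraries and not tested. Whether that listed 0 means absent RNA is not known.

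Among 13 genes for pocket proteins and E2F factors, which act downstream of the CDKs, none passed with limma without the block. With the block 2 were lower, against 7.99% of all genes tested. Without it 4 of the 13 had an unadjusted p under 0.05, as did 26.1% of all genes tested. Rbl1, which encodes the pocket protein p107, had 9.92 ± 0.757 FPKM in reporter positive and 18.7 ± 1.74 FPKM in reporter negative cells, with an adjusted p of 0.0571 without and 0.0408 with the block. E2f1 had 2.85 ± 0.424 FPKM in reporter positive and 6.83 ± 1.79 FPKM in reporter negative cells (adjusted p = 0.0847). Of 20 E2F target genes of G1/S, 19 were tested, with a median of -0.74. Of these 3 were lower, against 2.93% of all genes tested, none was higher and 16 did not pass. With the block 8 of the 19 were lower, against 7.99% of all genes tested, and none was higher. Both reporter positive libraries lay below both reporter negative ones for 18 of the 19, against 43% of all genes tested. Those that passed were Pcna, the replication clamp, at 71.0 ± 5.24 FPKM in reporter positive and 138 ± 1.71 FPKM in reporter negative cells (limma, adjusted p = 0.0320), and the helicase subunits Mcm6 (adjusted p = 0.0475) and Mcm3 (adjusted p = 0.0493). Under median-of-ratios scaling each of the 3 stayed lower and missed the threshold (adjusted p = 0.0556 to 0.0697). Ccne1, Ccne2, Rbl1 and E2f1 stand in more than 1 of these lists.

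Of 20 activators of CIP/KIP and INK4 transcription, all tested, 1 was higher, against 2.8% of all genes tested, and 19 did not pass. With the block 2 were higher and 5 lower, against 4.76% and 7.99% of all genes tested. The list's median was -0.07 as deposited and 0.12 after median-of-ratios scaling, so its sign against 0 was not fixed. The median of all genes tested moved too, from -0.18 to 0.01, and the list's median lay above it in both cases. Quantile-normalized values gave 0.14 for the list and -0.03 for all genes. The gap between the list and all genes was not tested. Klf4, a factor of differentiating epidermis known to bind the Cdkn1a promoter, had 134 ± 12.7 FPKM in reporter positive and 68.5 ± 7.78 FPKM in reporter negative cells (limma, adjusted p = 0.0419). Trp53, which encodes the p53 activator of Cdkn1a, had 35.0 ± 5.18 FPKM in reporter positive and 64.1 ± 4.45 FPKM in reporter negative cells, with an adjusted p of 0.0536 without and 0.0214 with the block. Trp73, a p53 relative, had an adjusted p of 0.0546 without and 0.0209 with the block, and Ets2 had 0.0505 without and 0.0233 with it, both lower in reporter positive cells.

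Of 16 repressors, 15 were tested, 1 was lower, against 2.93% of all genes tested, and 14 did not pass. With the block 1 was higher and 4 were lower, against 4.76% and 7.99% of all genes tested. The list's median was -0.30 as deposited and -0.11 with either other scaling. Id3, an inhibitor of helix-loop-helix factors, had 17.8 ± 0.257 FPKM in reporter positive and 36.6 ± 0.774 FPKM in reporter negative cells (limma, adjusted p = 0.0296). Myc, a repressor of Cdkn1a and Cdkn2b, had 37.0 ± 6.32 FPKM in reporter positive and 61.7 ± 5.19 FPKM in reporter negative cells, with an adjusted p of 0.0830 without and 0.0297 with the block. Ezh2 and Eed encode members of a Polycomb complex known to silence the Cdkn2a locus. Ezh2 had an adjusted p of 0.0895 without and 0.0370 with the block, where it was lower, and Eed did not pass in either (adjusted p = 0.0785 without the block).

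Of 14 ubiquitin ligase and turnover factors that act on p21, p27 and p57, 13 were tested. Among those 1 was lower, against 2.93% of all genes tested, and 12 did not pass. The list's median was -0.32 as deposited, -0.18 after quantile normalization and -0.11 after median-of-ratios scaling. Dtl, the ligase adaptor that targets p21 in S phase, had 2.96 ± 0.191 FPKM in reporter positive and 7.62 ± 1.22 FPKM in reporter negative cells (limma, adjusted p = 0.0493, and 0.0507 with median-of-ratios scaling). Skp2, the adaptor that targets p27, had 2.26 ± 0.318 FPKM in reporter positive and 4.32 ± 0.943 FPKM in reporter negative cells (adjusted p = 0.140). Of 12 other inhibitors of CDK activity and CDC25 phosphatases, none passed with limma without the block. An unadjusted p under 0.05 was found for 5, against the 26.1% of all genes given above. With the block 1, Cables1, was lower (limma, adjusted p = 0.0281), against 7.99% of all genes tested. Each of the single-gene calls for Ccnb2, Pcna, Mcm6, Mcm3, Klf4, Id3 and Dtl was lost when any 1 library was left out, with the direction kept.

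**Figure D5:**
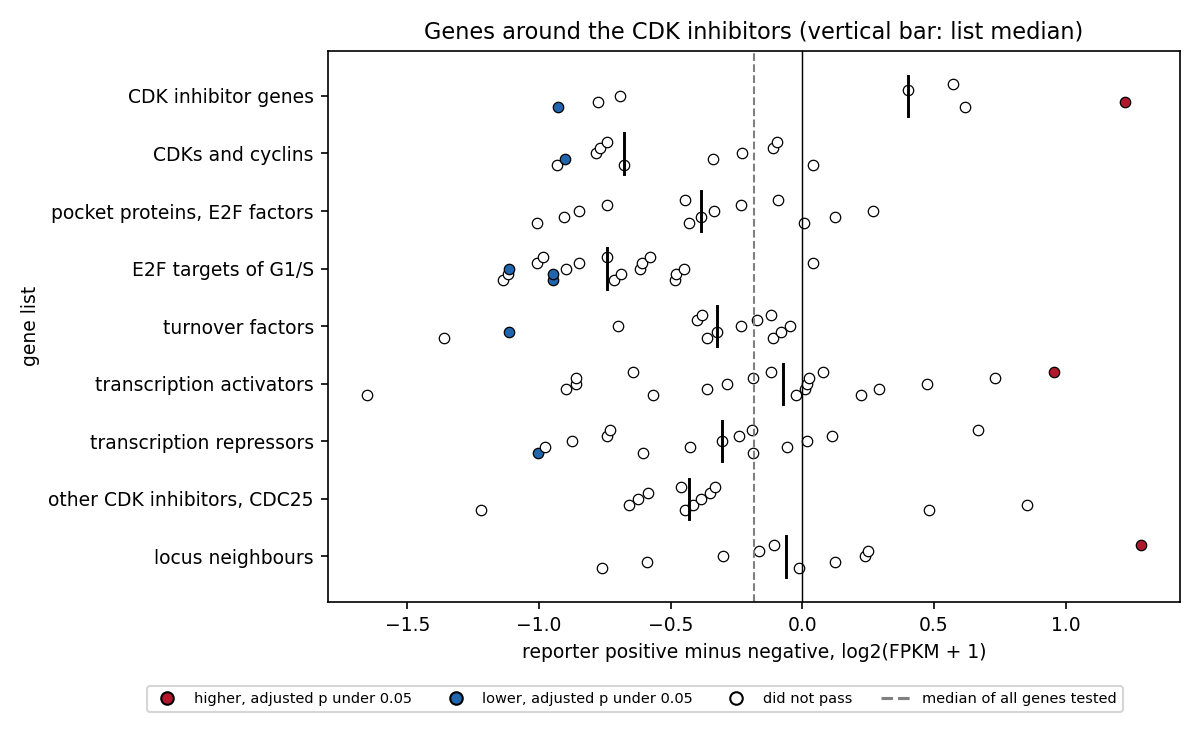
Reporter positive minus reporter negative difference on the log2(FPKM + 1) scale for each of the 7 CDK inhibitor genes (top row) and each tested gene of the 8 lists around them (points, filled where limma's adjusted p was under 0.05), with each list's median as a bar and the median of all genes tested as a dashed line at -0.18. The median lies at -0.74 for the E2F targets and at -0.07 for the activators.

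Of 14 genes that lie near the 7 inhibitor genes, 10 were tested. Among those 1 was higher, against 2.8% of all genes tested, and 9 did not pass. Phlda2, an imprinted gene 40.5 kb from Cdkn1c, had 35.5 and 29.6 FPKM in reporter positive and 14.5 and 11.2 FPKM in reporter negative cells (limma, log2 difference 1.29, adjusted p = 0.0364). It passed under both other scalings and with the block, and was lost when any 1 library was left out. Slc22a18, 12.7 kb from Cdkn1c, had 7.16 and 5.91 FPKM in reporter positive and 5.77 and 6.02 FPKM in reporter negative cells, which overlapped (adjusted p = 0.724). Mtap, which lies in the Cdkn2a region, had 53.8 and 45.1 FPKM in reporter positive and 51.8 and 47.6 FPKM in reporter negative cells (adjusted p = 0.972), and also overlapped.

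Of 9657 tested genes above 0 in every library and with an official symbol (without Gm, Rik and similar clone names or pseudogenes), the 3 with profiles nearest to that of Cdkn1a, by root mean square distance of centred log2(FPKM + 1) values over the 4 libraries, were Lss (0.0402), Elovl1 (0.0416) and Pla2g4f (0.0424). They encode lanosterol synthase, a fatty acid elongase and a phospholipase A2. Elovl1 had 136 and 137 FPKM in reporter positive and 54.4 and 62.8 FPKM in reporter negative cells. The 3 nearest to Cdkn1b were Thap3 (0.0113), Lamb1 (0.0154) and Calm2 (0.0172). Lamb1, a laminin chain gene, had 4.43 and 4.30 FPKM in reporter positive and 9.10 and 8.92 FPKM in reporter negative cells, and Calm2, a calmodulin gene, had 131 and 127 FPKM in reporter positive and 251 and 249 FPKM in reporter negative cells. These 6 genes were chosen for their likeness over the same 4 libraries, so their values are a description.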

How the data were processed

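Libraries were prepared from sorted-cell RNA with an mRNA kit from Illumina; the labels' protocols state no strand setting. TopHat, Cufflinks and build mm9 are named in the submitters' processing notes, and their versions were not given in the sources used. The deposited values are FPKM, already scaled to transcript length and library depth, with an interval for each transcript, per the file headers, so no count model was used. The interval is estimated within a library and does not cover variation between libraries, and the number of reads is unknown.

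Transcripts were joined to genes with Python 3.11.15 and pandas 2.3.3. GENCODE M21 gave the names of 84047 of the 96734 reference transcripts by their identifiers, and 1993 were named through the gene identifiers in the files. A further 6545 and the assembled transcripts were placed in a gene if its exons held at least 50% of their length. FPKM was summed over transcripts of 200 or more exonic bases, and shorter records, which held 95.1% to 98.9% of all FPKM, were left out. Cufflinks assembled transcripts in each library separately, so a form can be assembled in 1 library and annotated in another.

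Groups follow the reporter state in the sample titles. All 11835 genes were fitted with limma 3.58.1 in R 4.3.3 (eBayes with trend) on log2(FPKM + 1), two-sided, with Benjamini-Hochberg adjustment and a threshold of 0.05, checked on simulated data. The titles number the experiment, which both groups share. Deviations of same-numbered libraries from their group means correlated at 0.187 over all genes tested and at 0.305 over the 11378 genes above 0 in every library, and the block is given where it changes a call. Alternatives were the pseudocount, filter, scaling, transcript choice, genes listed at 0, robust variance, the block and each library left out. The block combined with other choices, transcripts as features and the overlapping Cdkn2b record were added after seeing the data.

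The members and lists were chosen with earlier results of these data known. Named genes are the 7 members, up to 4 genes of smallest p per list, and the 3 nearest profiles to Cdkn1a and Cdkn1b. Gm12606, Cdk6, Slc22a18 and Mtap fall outside that rule and were chosen after their values were seen. Coordinates of genes are those of the files (mm9). RefSeq and GENCODE sequences are on GRCm38.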

Additional observations from a re-analysis of the deposited data

How the results depend on the processing

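Each of the 7 genes kept its sign under every alternative run (18 each, 17 for Cdkn1c). Of all genes, 678 passed (331 higher, 347 lower), against 443 and 208 with median-of-ratios scaling and 429 and 265 with quantile normalization. The count was 74 with no filter, 1509 with the replicate block, 95 with reference transcripts only, 327 with the most abundant transcript, 1301 with genes listed at 0 left out, 1020 with robust variance, 3341 with block and listed zeros left out, 433 with block and median-of-ratios scaling, and 46 to 225 without 1 library. Leaving out the reporter positive library gave 95 for experiment 1 and 57 for experiment 2, and leaving out the reporter negative library gave 225 and 46. The lone library of a group was then assumed to vary like the other group. The Cdkn1a difference of 1.23 did not pass with no filter (1.23, adjusted p = 0.0533), with reference transcripts only (1.23, 0.0536) or without 1 library (1.18 to 1.27). That of Cdkn1b was -0.93 and did not pass with no filter (-0.93), median-of-ratios scaling (-0.72), quantile normalization (-0.76), reference transcripts only (-0.80), the most abundant transcript (-0.92), block and median-of-ratios scaling (-0.72) or without 1 library (-0.95 to -0.91). Cdkn2c passed with the replicate block (-0.78), though not with block and median-of-ratios scaling (-0.58). With block and listed zeros left out Cdkn2a (0.57), Cdkn2b (0.62), Cdkn2c (-0.78) and Cdkn2d (-0.69) passed. The block changed no other call among the 7 genes. The mean Cdkn1a share in reporter positive cells was 64.9% with reference transcripts only, against 63.8%. Where calls were lost, the cause was not tested. With 2 libraries per group a difference that did not pass is not shown to be absent.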
